A study of Rattus norvegicus with 9 samples.

Results

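Antioxidant and NRF2 target genes are described here in the gastric lymphatic vessels of rats subjected to water-immersion stress. The set holds 10 genes chosen by symbol, namely Nfe2l2, Hmox1, Nqo1, Gclc, Gclm, Txnrd1, Srxn1, Sod1, Sod2 and Cat, among 18964 genes in the deposited expression table. All 10 had enough counts to be tested, as had 14643 genes in all. The 10 genes, like the pathway lists used below, were chosen with earlier results of these data known. Poly(A) RNA of gastric lymphatic vessel from male wild-type Sprague-Dawley rats, whose age the labels do not give, was sequenced in 3 groups of 3 libraries. Rats of all groups were fasted for 12 h. BXD rats were placed individually in 15 cm of water at 22 °C for 4 h and received BXD, which the labels name by that abbreviation alone, by gavage at 10 ml per kg 30 min afterwards. Model rats went through the same immersion, and their gavage is given as distilled water in the treatment protocol and as saline in the sample labels. Control rats were not immersed and received distilled water per the protocol. The protocol assigns 6 rats to each study group and does not say which rats, or how many, made up a library. The p-values therefore speak of the spread between libraries, which may be in part technical. Rats treated with omeprazole were not analysed here.

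Nfe2l2 encodes NRF2, a transcription factor that KEAP1 holds in the cytoplasm and hands to a CUL3 ubiquitin ligase for degradation. When oxidants or electrophiles modify KEAP1, NRF2 accumulates, pairs with a small MAF protein and binds antioxidant response elements in front of genes for glutathione synthesis, thioredoxin recycling, haem breakdown and quinone reduction, while BACH1 competes for the same elements. The superoxide dismutases and catalase remove superoxide and hydrogen peroxide, and Sod2 is also a well known target of inflammatory signalling.

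Total estimated counts lay between 12313813 and 13455705 per library. Of the 10 markers of lymphatic endothelium on the list used here 9 had enough counts to be tested. They ran from Stab2 at 0.0701 to 13.7 CPM to Mmrn1 at 374 to 1030 CPM (CPM, counts scaled to library size with trimmed means of M-values). Prox1 stood at 13.9 to 100 CPM and Lyve1 at 85.5 to 304 CPM. The 10 markers summed to between 1330 and 1940 CPM in BXD libraries, between 906 and 1620 CPM in model libraries and between 962 and 1120 CPM in control libraries. Markers of other cells were present too, and their sums differed between groups and libraries. The 9 fibroblast markers summed to between 29400 and 38000 CPM in BXD libraries, between 21900 and 31200 CPM in model libraries and between 34100 and 47400 CPM in control libraries. The 19 adipocyte markers summed to between 14800 and 20300 CPM in BXD libraries, between 21100 and 39500 CPM in model libraries and between 8320 and 9460 CPM in control libraries. The 12 striated muscle markers summed to 7500, 64.6 and 4040 CPM in BXD replicates 1 to 3, to between 20.8 and 439 CPM in model libraries and to between 30.5 and 38.3 CPM in control libraries, so BXD replicates 1 and 3 stood apart by this measure. The 13 smooth muscle markers summed to between 7740 and 11700 CPM in BXD libraries, between 2620 and 4570 CPM in model libraries and between 5390 and 8060 CPM in control libraries. The 11 neutrophil markers summed to between 82.1 and 194 CPM in BXD libraries, between 168 and 306 CPM in model libraries and between 54.6 and 97.5 CPM in control libraries. Most of this sum was Mpo, at 38.1 to 274 CPM, and the next highest, Cxcr2, stood at 2.94 to 16.8 CPM. The median sum was lower in BXD than in model libraries, 116 against 229 CPM. Over the 8 neutrophil markers tested, the median log2 fold change of BXD over model vessels was 0.72, the other way. The part of these cells in the differences between groups was not tested.

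Promoter windows of RefSeq on the GRCr8 assembly, from 250 bases before a transcription start to 50 bases after it, were searched on both strands for the antioxidant response element core TGACNNNGC and its common variant TGAGNNNGC. A match is a description of these letters and not a bound site. The core was found in 12.1% and the variant in 17.2% of all 33469 windows, and either was found in 27.1%. Windows were at hand for 9 of the 10 genes, and the entry for Hmox1 is not among them. Srxn1 held 3 matches to the variant, Gclm held 1 match to the core, and Nfe2l2, Sod2 and 1 of the 2 windows of Txnrd1 held 1 match each. The windows of Nqo1, Gclc, Sod1 and Cat and the other Txnrd1 window held 0. Sequence outside the windows was not searched, so 0 matches does not say that a gene lacks the element. The 3 windows shown are those of Srxn1, which had the largest rise of the 10 genes in model vessels, of Txnrd1, whose difference between BXD and control vessels had the smallest p of the 10 genes, and of Gclm, which carries the core and passed no test. They are written 5′ to 3′ on the strand of the gene with the matches, on either strand, in capitals.
Srxn1, chr3:161064562-161064861, plus strand: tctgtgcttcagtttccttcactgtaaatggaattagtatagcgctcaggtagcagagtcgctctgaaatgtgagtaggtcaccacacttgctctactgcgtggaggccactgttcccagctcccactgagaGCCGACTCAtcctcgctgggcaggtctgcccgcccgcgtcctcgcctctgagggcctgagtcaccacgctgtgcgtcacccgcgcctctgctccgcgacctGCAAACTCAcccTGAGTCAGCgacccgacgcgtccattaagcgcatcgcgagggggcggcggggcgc
Txnrd1, chr7:22755855-22756154, minus strand: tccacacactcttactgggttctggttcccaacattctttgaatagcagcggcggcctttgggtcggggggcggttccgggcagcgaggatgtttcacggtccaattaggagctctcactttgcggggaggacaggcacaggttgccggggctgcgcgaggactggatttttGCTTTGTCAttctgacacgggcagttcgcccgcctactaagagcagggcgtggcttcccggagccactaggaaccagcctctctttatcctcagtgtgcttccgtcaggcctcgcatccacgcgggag
Gclm, chr2:213031885-213032184, plus strand: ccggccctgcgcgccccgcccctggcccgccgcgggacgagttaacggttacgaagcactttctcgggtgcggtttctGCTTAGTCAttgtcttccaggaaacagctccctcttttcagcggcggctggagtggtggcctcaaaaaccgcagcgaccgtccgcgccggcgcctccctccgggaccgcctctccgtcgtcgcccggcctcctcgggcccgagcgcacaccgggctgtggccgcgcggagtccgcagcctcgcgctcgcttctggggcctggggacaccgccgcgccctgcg

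On the TPM scale, which divides by transcript length, Sod1 had the highest level of the 10 genes in every group, at 761 ± 188 TPM in BXD, 767 ± 116 TPM in model and 516 ± 25.5 TPM in control libraries (SD, n = 3). Sod2 and Cat held the next ranks in all 3 groups. At the low end, Srxn1 stood last in control libraries at 8.47 ± 1.36 TPM, below Gclc at 19.3 ± 1.47 TPM, and its libraries did not overlap those of Gclc. In BXD libraries the lowest TPM were those of Gclm, at 21.8 ± 2.65, and Nqo1, at 22.3 ± 4.89, which overlapped, and in model libraries that of Nqo1, at 12.8 ± 4.55.

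In model vessels compared with control vessels, 7 of the 10 genes rose and 0 fell. They were Srxn1, Sod2, Hmox1, Sod1, Cat, Gclc and Txnrd1, from 4.86-fold for Srxn1 to 1.76-fold for Txnrd1. Nfe2l2, Nqo1 and Gclm did not pass the threshold. Genes were called at a Benjamini-Hochberg adjusted p under 0.05 in edgeR's quasi-likelihood test, which called 42.2% of all genes tested in this comparison, 21.6% higher and 20.6% lower. The median log2 fold change of the 10 genes was 0.93, against -0.01 over all genes. With library size alone in place of trimmed means the median of all genes moved to -0.28, and the calls of 3161 genes higher and 3016 lower became 1619 higher and 4910 lower; 7 of the 10 genes were called higher with that scaling too. At an unadjusted p under 0.05 there were 7 of the 10 genes, all higher, where 51.5% of all genes tested had such a p. Of the adipocyte markers 18 of 19 were called higher in the same comparison; the part of fat tissue in the rise of the 7 genes was not tested, and in bulk RNA more cells of a type and more RNA per cell cannot be told apart.

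In BXD vessels compared with the same control vessels, 7 of the 10 genes rose again and 0 fell, with Nfe2l2 now among them and Cat not. Folds ran from 5.61 for Hmox1 to 1.49 for Nfe2l2. The test called 30.3% of all genes here, 16.1% higher and 14.3% lower, and the median log2 fold change of the 10 genes was 1.08, against -0.02 over all genes. Because both comparisons share the control libraries, the 2 counts are not independent. The adipocyte markers were called higher for 10 of 19 genes and the striated muscle markers for 10 of 10 tested, and their part in these rises was not tested.

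Between BXD and model vessels edgeR called 0 of the 10 genes, with 0.0615% of all genes called, 0.0546% higher and 0.00683% lower. At an unadjusted p under 0.05 there were 6 of the 10, namely Nfe2l2, Hmox1, Nqo1, Gclc and Txnrd1 higher and Cat lower in BXD, where 20.9% of all genes tested had such a p. DESeq2 called Hmox1 (adjusted p = 0.00994) and Txnrd1 (adjusted p = 0.00188), both higher in BXD. It called 1129 of 14643 genes in all, 643 higher and 486 lower. With limma-voom 0 of the 10 were called, and only 3 of all genes. In the authors' deposited table the q-values of Hmox1 and Txnrd1 for this comparison were 0.035 and 0.0251, where 2.87% of the genes listed had a q-value under 0.05.

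**Figure D1:**
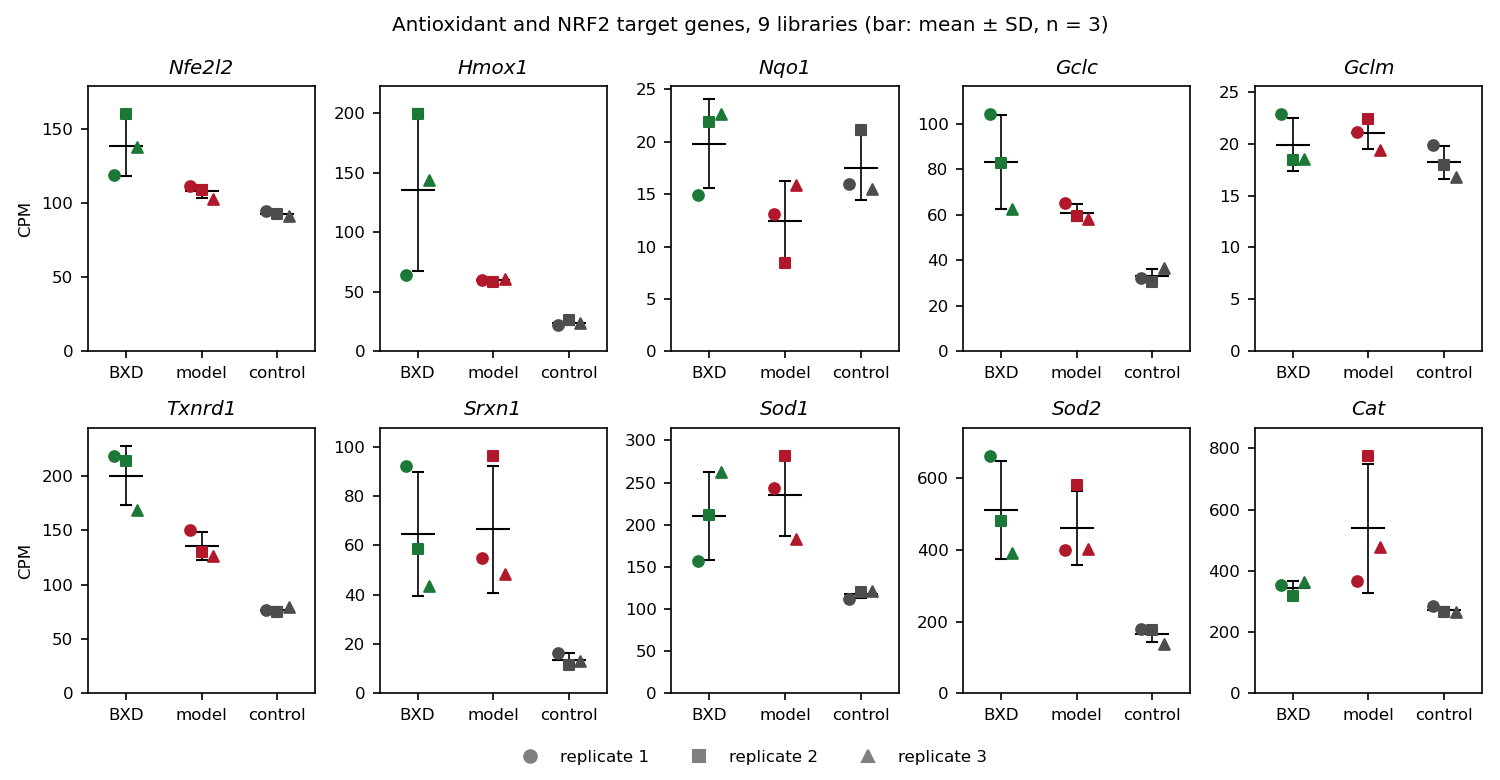
Level of each of the 10 genes in CPM (vertical axis, from 0) in the 3 BXD, 3 model and 3 control libraries, each point a library with its replicate number as the symbol, the horizontal bar the group mean and the error bar its SD. Srxn1, Sod2, Txnrd1, Gclc, Sod1, Hmox1, Nfe2l2 and Cat lie higher in every BXD and model library than in any control library. The difference from control was not called for Nfe2l2 in model or for Cat in BXD vessels. How many of all genes separate in this way was not counted. edgeR called 42.2% of all genes in model against control and 30.3% in BXD against control. Nqo1 overlaps between groups, and Gclm lies between 16.8 and 22.8 CPM throughout.

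Nfe2l2, the NRF2 gene itself (gene ID 83619, Rnor_6.0 chromosome 3, 62497568 to 62525146, minus strand), was measured at 119, 160 and 138 CPM in BXD replicates 1 to 3, at 112, 109 and 103 CPM in model replicates and at 95.1, 92.7 and 91.1 CPM in control replicates. The groups did not overlap, and the BXD libraries were the highest. The rise in BXD over control vessels came to 0.58 ± 0.11 on the log2 scale (SE, adjusted p = 0.00626), and it was 0.37 with library size alone (adjusted p = 0.0468). The difference of model from control vessels was 0.22 ± 0.11 (adjusted p = 0.147), and its direction depends on the scaling, since it was -0.05 with library size alone. In TPM, Nfe2l2 averaged 86.2 ± 13.8 in BXD, 60.7 ± 3.6 in model and 70.0 ± 2.99 in control libraries, so on that scale the model group was the lowest. In the authors' deposited table the log2 fold change of model over control was 0.24 with a q-value of 0.0341. BXD over model vessels gave 0.36 ± 0.11 (adjusted p = 0.143).

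Among 12 other tested genes of NRF2 control, 5 rose and 2 fell in model vessels, beside 21.6% of all genes called higher and 20.6% called lower. Keap1, the sensor that marks NRF2 for degradation, fell 1.39-fold (adjusted p = 0.00596) and also fell in BXD vessels against control, 1.27-fold (adjusted p = 0.0296). The second call is lost without control replicate 2 or 3 or BXD replicate 1 or 2, with an adjusted p of 0.103 at the highest. Bach1, the repressor of antioxidant response elements, rose 1.97-fold in model vessels (adjusted p = 0.00123) and 2.2-fold in BXD vessels (adjusted p = 0.00107). Cul3, the scaffold of the ligase, rose 1.67-fold in model vessels (adjusted p = 0.000875) and 1.57-fold in BXD vessels (adjusted p = 0.00195). Gsk3b, a kinase that prepares NRF2 for another route of degradation, rose 1.37-fold in model vessels (adjusted p = 0.00649), a call lost with library size alone (adjusted p = 0.126). The small MAF gene Mafg had a log2 fold change of -0.01 ± 0.14 in model vessels (adjusted p = 0.945).

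Hmox1, which encodes the inducible haem oxygenase (24451, chromosome 19, 14508634 to 14515455, plus strand), had 64.1, 199 and 144 CPM in BXD replicates 1 to 3. It had 59.7, 58.7 and 61.2 CPM in model replicates and 22.6, 26.2 and 23.8 CPM in control replicates. Model libraries lay within a narrow range above all control libraries, and BXD replicates 2 and 3 lay far above BXD replicate 1, which stood just above the model range. The log2 fold change was 1.30 ± 0.33 in model over control vessels (adjusted p = 0.0125) and 2.49 ± 0.34 in BXD over control vessels (adjusted p = 0.00143). For BXD over model vessels it came to 1.18 ± 0.32 (adjusted p = 0.121), and it was 1.52 without BXD replicate 1 (adjusted p = 0.0146), which passed, and 0.81 without BXD replicate 2 (adjusted p = 0.255). Hmox1 is strongly expressed by macrophages that clear red cells. The 12 macrophage markers summed to 669 to 762 CPM in BXD, 867 to 986 CPM in model and 581 to 741 CPM in control libraries. The 8 erythrocyte markers summed to 4820 to 6670 CPM in BXD, 10300 to 15600 CPM in model and 5260 to 11300 CPM in control libraries. The macrophage sum was higher in every model library than in any control library, as Hmox1 was. In BXD libraries the macrophage sum lay below every model library and overlapped control libraries, while Hmox1 lay above every model library. The part of these cells in the Hmox1 levels was not tested.

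The constitutive haem oxygenase Hmox2 rose 1.42-fold in model vessels (adjusted p = 0.0115), a call lost with library size alone (adjusted p = 0.0999). The ratio of Hmox1 to Hmox2 in TPM, a pair set side by side after its values were seen, was 1.53, 5.94 and 3.72 in BXD replicates, 1.41, 1.13 and 1.49 in model replicates and 0.656, 0.841 and 0.732 in control replicates. Every BXD library was above every model library and every model library above every control library in this ratio. Of 10 other tested genes of haem breakdown and iron, 5 rose in model vessels and 0 fell, beside the 21.6% of all genes called higher. The ferritin chains, which store iron released from haem, were among them, with Ftl1 2.14-fold (adjusted p = 0.00063) and Fth1 1.54-fold higher (adjusted p = 0.00272). Blvra, which reduces biliverdin, rose 1.70-fold (adjusted p = 0.00194). In BXD vessels 2 of the 10 were called higher against control, a share near the 16.1% of all genes, namely Ftl1 at 1.77-fold (adjusted p = 0.00242) and Fth1 at 1.44-fold (adjusted p = 0.00745).

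Gclc and Gclm encode the catalytic and the modifier subunit of glutamate-cysteine ligase, the first step of glutathione synthesis, and they differed in what was measured here. Gclc (25283, chromosome 8, 85059051 to 85097471, plus strand) stood at 104, 82.5 and 62.7 CPM in BXD replicates, at 65.0, 59.4 and 58.2 CPM in model replicates and at 32.1, 30.6 and 36.7 CPM in control replicates. All BXD and model libraries were above all control libraries, and BXD replicate 3 fell within the model range. Its log2 fold change was 0.88 ± 0.17 in model over control vessels (adjusted p = 0.00442) and 1.33 ± 0.17 in BXD over control vessels (adjusted p = 0.00127). BXD over model vessels gave 0.45 ± 0.17 (adjusted p = 0.183).

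Gclm (29739, chromosome 2, 225827504 to 225850690, plus strand) had 22.8, 18.4 and 18.5 CPM in BXD replicates, 21.1, 22.4 and 19.4 CPM in model replicates and 19.9, 17.9 and 16.8 CPM in control replicates. The 3 groups overlapped, and Gclm was called in 0 of the 3 comparisons. Its window, printed with the others, holds a match to the core element. The log2 fold change of model over control was 0.20 ± 0.14, with a 95% interval of -0.10 to 0.51 (adjusted p = 0.249), and that of BXD over control was 0.13 ± 0.14, with an interval of -0.18 to 0.43 (adjusted p = 0.508), so rises of the size seen for Gclc lay outside both intervals. Both directions turn with library size alone, to -0.07 and -0.08. The ratio of Gclc to Gclm in TPM, another pair chosen after its values were seen, was 1.98, 1.96 and 1.47 in BXD replicates, 1.34, 1.15 and 1.30 in model replicates and 0.701, 0.746 and 0.952 in control replicates. The 3 groups did not overlap, and Gclc exceeded Gclm in every BXD and model library and in no control library.

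Of 10 other tested genes of glutathione synthesis and recycling, 6 rose and 1 fell in model vessels, where 21.6% of all genes were called higher. Glrx, a glutaredoxin that reduces protein-glutathione disulfides, rose 2.2-fold (adjusted p = 0.000972). Slc3a2, the heavy chain of the cystine importer, rose 1.75-fold in model vessels (adjusted p = 0.00197) and as much in BXD vessels (1.75-fold, adjusted p = 0.00281). Ggct, which takes part in glutathione turnover, rose 2.15-fold (adjusted p = 0.00175). Ggt5, a cell-surface enzyme that cleaves glutathione conjugates, fell 2.08-fold (adjusted p = 0.00199). Of the 18 tested glutathione peroxidases and transferases, 10 rose and 1 fell in model vessels, against the same background, among them Gsta4 at 3.03-fold (adjusted p = 0.00391) and Mgst1 at 2.69-fold higher (adjusted p = 0.000821).

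Txnrd1, the cytosolic thioredoxin reductase (58819, chromosome 7, 26946124 to 26984400, minus strand), was measured at 218, 214 and 169 CPM in BXD replicates. Model replicates had 150, 130 and 126 CPM and control replicates 76.7, 74.5 and 79.7 CPM. The 3 groups were fully separate, with BXD highest. Log2 fold changes were 0.81 ± 0.12 in model over control vessels (adjusted p = 0.00148) and 1.38 ± 0.12 in BXD over control vessels (adjusted p = 0.000515). For BXD over model vessels it was 0.57 ± 0.12 (adjusted p = 0.0959), and all 3 BXD libraries exceeded the model mean, by 1.62-, 1.58- and 1.26-fold. Eid3, which overlaps Txnrd1 on the same strand, had at most 9 counts in any library.

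Srxn1, which encodes sulfiredoxin, the enzyme that restores overoxidised peroxiredoxins (296271, chromosome 3, 147607481 to 147614410, plus strand), stood at 92.4, 58.4 and 43.4 CPM in BXD replicates, at 55.1, 96.1 and 48.5 CPM in model replicates and at 16.5, 11.4 and 13.2 CPM in control replicates. Its BXD and model libraries overlapped, and both lay above all control libraries. Log2 fold changes were 2.28 ± 0.34 in model over control vessels (adjusted p = 0.00143) and 2.24 ± 0.34 in BXD over control vessels (adjusted p = 0.00211). Between BXD and model vessels it was -0.04 ± 0.32, with a 95% interval of -0.76 to 0.68 (adjusted p = 0.954). The window of Srxn1 printed with the others holds its 3 variant matches. Txnrd1 and Sod2, like Srxn1, had a match and were called higher in model vessels, while Nfe2l2 and Gclm had 1 match each and were not called. Gclc, Sod1 and Cat were called higher with 0 matches, and Nqo1 was not called with 0. The part of these matches in the levels was not tested.

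The thioredoxin and peroxiredoxin genes rose in model vessels for 15 of 17 tested beside Txnrd1 and Srxn1, and 0 fell, where 21.6% of all genes were called higher. Prdx6 rose 2.28-fold (adjusted p = 0.00118) and Prdx5 2.01-fold (adjusted p = 0.00707), both of which reduce peroxides. Txnip, which binds and inhibits thioredoxin, rose 1.75-fold (adjusted p = 0.00162). Prdx2 rose 1.36-fold (adjusted p = 0.00726), a call lost with library size alone (adjusted p = 0.144). In BXD vessels compared with control, 6 of the 17 were called higher, beside 16.1% of all genes, among them Prdx6 at 1.85-fold (adjusted p = 0.0053) and Txnip at 1.67-fold (adjusted p = 0.00328).

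Sod1, the copper-zinc superoxide dismutase of the cytosol (24786, chromosome 11, 30363282 to 30368858, plus strand), had 157, 212 and 262 CPM in BXD replicates, 243, 281 and 183 CPM in model replicates and 112, 120 and 121 CPM in control replicates. All BXD and model libraries exceeded all control libraries, and BXD and model overlapped. Its log2 fold change was 1.01 ± 0.20 in model over control vessels (adjusted p = 0.00501) and 0.84 ± 0.20 in BXD over control vessels (adjusted p = 0.0141), and the second call is lost without control replicate 1 (adjusted p = 0.0504). BXD over model vessels gave -0.16 ± 0.20 (adjusted p = 0.68).

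Sod2, the manganese superoxide dismutase of mitochondria (24787, chromosome 1, 47914757 to 47921587, minus strand), was at 661, 480 and 393 CPM in BXD replicates, at 401, 581 and 404 CPM in model replicates and at 181, 178 and 139 CPM in control replicates. Again BXD and model libraries overlapped and both lay above control. Log2 fold changes were 1.47 ± 0.22 in model over control vessels (adjusted p = 0.00152) and 1.62 ± 0.22 in BXD over control vessels (adjusted p = 0.00154). BXD over model vessels gave 0.15 ± 0.22 (adjusted p = 0.733).

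Cat, which encodes catalase (24248, chromosome 3, 93379872 to 93412058, minus strand), was the only gene of the 10 called higher in model but not in BXD vessels, both against control. It had 354, 319 and 363 CPM in BXD replicates, 366, 774 and 478 CPM in model replicates and 285, 265 and 265 CPM in control replicates. The 3 groups did not overlap, and model replicate 2 was the highest by far. The log2 fold change of model over control was 0.99 ± 0.23 (adjusted p = 0.00943), and 0.64 without model replicate 2 (adjusted p = 0.00948), the library with the highest sum of adipocyte markers, 39500 CPM. That of BXD over control was 0.35 ± 0.23 (adjusted p = 0.282), and it passed when only these 2 groups were fitted (adjusted p = 0.0319). The difference of BXD from model itself was -0.64 ± 0.23 (adjusted p = 0.168). In the authors' deposited table the q-value of Cat for BXD over control was 0.00247 at a log2 fold change of 0.36.

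Of the 7 other tested genes of superoxide and peroxide removal, 5 rose in model vessels and 0 fell, beside the 21.6% of all genes called higher. They include Sod3, the secreted superoxide dismutase, at 1.69-fold (adjusted p = 0.00608), Aifm2, which reduces ubiquinone at membranes, at 1.97-fold (adjusted p = 0.00936), and Park7 at 1.44-fold (adjusted p = 0.0133). Without model replicate 2 the log2 fold change of Aifm2 was 0.63, against 0.97 with it. The call of Park7 is lost with library size alone (adjusted p = 0.128) and without control replicate 3, and that of Pon3, 1.64-fold higher (adjusted p = 0.0235), is lost without model replicate 2 (adjusted p = 0.0524), without control replicate 1 or 3 and with library size alone (adjusted p = 0.105).

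Nqo1, which encodes a quinone reductase widely used as a readout of NRF2 activity (24314, chromosome 19, 38422210 to 38437103, plus strand), had 14.9, 21.9 and 22.6 CPM in BXD replicates, 13.1, 8.42 and 15.9 CPM in model replicates and 16, 21.1 and 15.5 CPM in control replicates. The groups overlapped, with model replicate 2 the lowest library. The log2 fold change was -0.49 ± 0.26 in model over control vessels, with a 95% interval of -1.06 to 0.09 (adjusted p = 0.152), and 0.17 ± 0.25 in BXD over control vessels, with an interval of -0.39 to 0.74 (adjusted p = 0.634). For BXD over model vessels it was 0.66 ± 0.26 (adjusted p = 0.19). Nqo1 overlaps Nfat5 on the opposite strand, which had 2109 to 2990 counts in BXD, 1376 to 2244 in model and 3137 to 3761 in control libraries, and the sources name no stranded kit, so reads of the overlap cannot be told apart.

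Of 18 other tested quinone, aldehyde and xenobiotic enzymes, 6 rose and 2 fell in model vessels, a share near the 42.2% of all genes called in either direction. Aldh2, the mitochondrial aldehyde dehydrogenase, rose 1.80-fold (adjusted p = 0.000943) and Akr1b1, aldose reductase, 1.65-fold (adjusted p = 0.00428). Abcc3, an exporter of conjugates, fell 1.96-fold in model vessels (adjusted p = 0.00278) and 2.32-fold in BXD vessels (adjusted p = 0.00162). Of 11 genes of NADPH supply, 6 rose and 0 fell in model vessels, beside the 21.6% of all genes called higher, with Mthfd2 of mitochondrial folate metabolism at 3.43-fold (adjusted p = 0.0032) and Pgd of the pentose phosphate pathway at 1.95-fold (adjusted p = 0.00469). In BXD vessels 1 of the 11 was called higher, near the 16.1% of all genes, namely Mthfd2, at 4.82-fold (adjusted p = 0.00173). Of 11 oxidant sources, 4 were called lower and 1 higher in model vessels, in all a share near the 42.2% of all genes called. Nox4, a hydrogen peroxide-producing NADPH oxidase, fell 1.54-fold (adjusted p = 0.0183), Duox1 2.2-fold (adjusted p = 0.023) and Maoa 1.41-fold (adjusted p = 0.0261), while Xdh, xanthine dehydrogenase, rose 2.06-fold (adjusted p = 0.00282). Nox4 is not called without control replicate 2 or without model replicate 2 or 3 (adjusted p up to 0.0671), Duox1 without control replicate 1 or 2 or model replicate 1 or 3 (up to 0.0775) and Maoa without control replicate 2 or 3 or model replicate 2 or 3 (up to 0.0853). With FPKM and a pseudocount of 1, the log2 fold change of Duox1 was -0.42 in place of -1.14. Smooth muscle marker sums were lower in every model library than in any control library, and their part in these falls was not tested.

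**Figure D2:**
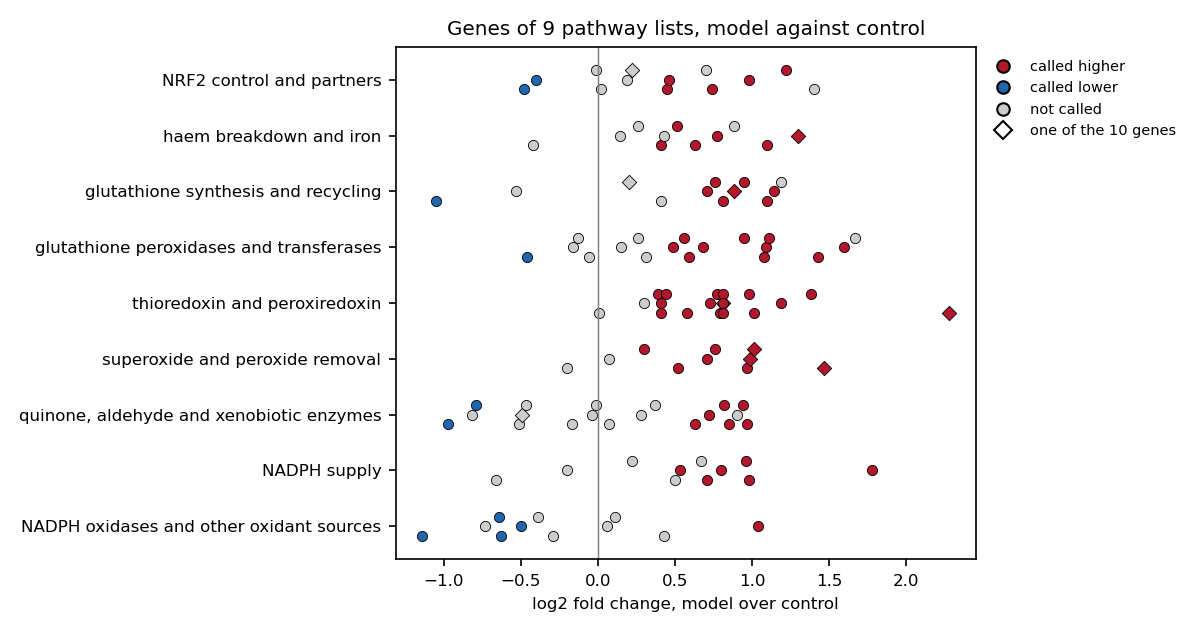
Log2 fold change of model over control vessels (horizontal axis) for each tested gene of the 9 pathway lists, coloured by whether it was called higher, called lower or not called, with diamonds for the 10 genes. The thioredoxin and peroxiredoxin list has 17 of 19 called higher, and the oxidant sources have 1 higher and 4 lower of 11.

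The 9 lists were chosen with earlier results of these data known, so their counts describe these genes and are no independent test. Over all 9 lists, leaving out the 10 genes, 59 of 114 tested genes were called higher and 10 lower in model vessels, beside 21.6% and 20.6% of all genes, with a median log2 fold change of 0.51. In BXD vessels against the same control vessels 32 were called higher and 3 lower, beside 16.1% and 14.3% of all genes, with a median of 0.27, and between BXD and model vessels edgeR called 0, with a median of -0.17. Of the 114, 36 had an unadjusted p under 0.05 in that last comparison, 10 of them higher in BXD, beside 20.9% of all genes. DESeq2 called 18 of the 114, 6 of them higher, where it called 1129 of all 14643 genes. With limma-voom 0 of the 114 and 3 of all 14643 genes were called. The medians of the 10 genes in these comparisons were 0.93, 1.08 and 0.25, and those of all genes -0.01, -0.02 and -0.01. The adipocyte marker sums were highest in model and lowest in control libraries. Against control, the median of the 10 genes was higher in BXD vessels, and that of the 114 genes was higher in model vessels. The part of fat tissue in these values was not tested.

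**Figure D3:**
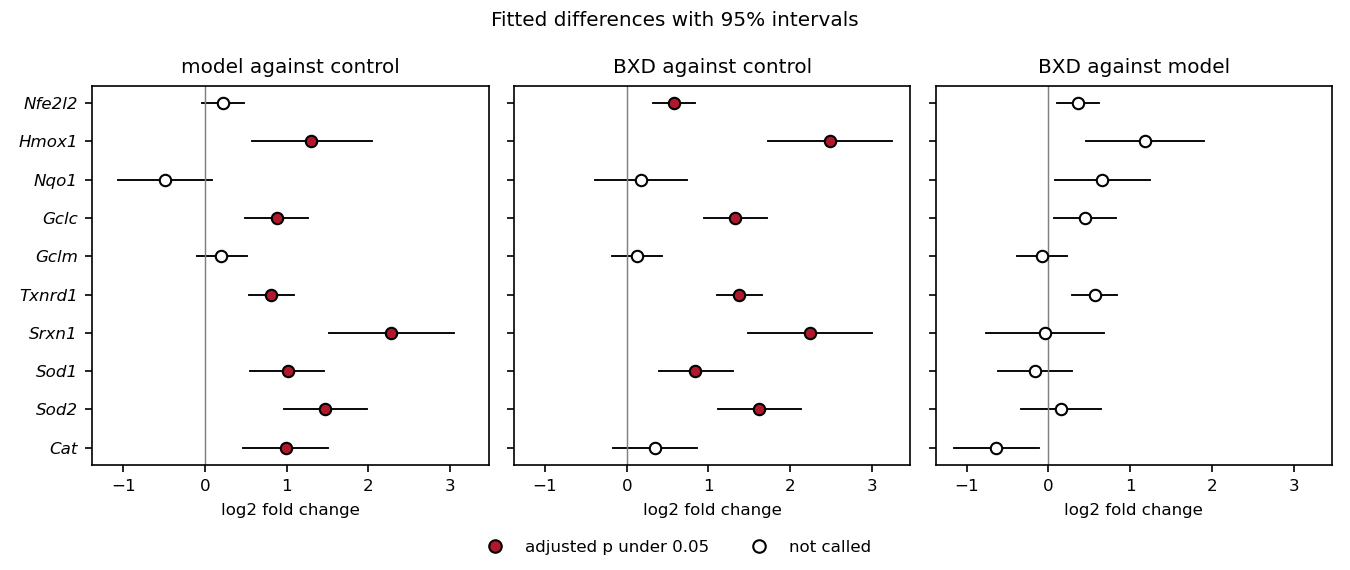
Log2 fold change of each of the 10 genes (horizontal axis) with its 95% interval, for model against control, BXD against control and BXD against model vessels, with filled points where edgeR gave an adjusted p under 0.05. Srxn1 reaches 2.28 in model against control and Hmox1 2.49 in BXD against control, and no gene is filled in BXD against model.

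The 3 BXD libraries differed among themselves in which of these genes were high. Relative to the model mean, BXD replicate 1 had Hmox1 at 1.07-fold and Srxn1, Sod2 and Gclc at 1.45-, 1.45- and 1.71-fold. In BXD replicate 2 Hmox1 was at 3.33-fold, Srxn1 at 0.918-fold, Sod2 at 1.06-fold and Gclc at 1.36-fold. BXD replicate 3 had Hmox1 at 2.41-fold and Srxn1, Sod2 and Gclc at 0.683-, 0.864- and 1.03-fold. Thus BXD replicate 1 was the lowest of its group for Hmox1, Nfe2l2, Nqo1 and Sod1 and the highest for Gclc, Gclm, Txnrd1, Srxn1 and Sod2. Its striated muscle markers summed to 7500 CPM and its smooth muscle markers to 11700 CPM, both the highest of the BXD libraries, and their part was not tested. Model replicate 2 was the highest of its group for Gclm, Srxn1, Sod1, Sod2 and Cat, and without it 7 of the 10 genes were still called higher in model over control vessels, Srxn1 with a log2 fold change of 1.92.

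**Figure D4:**
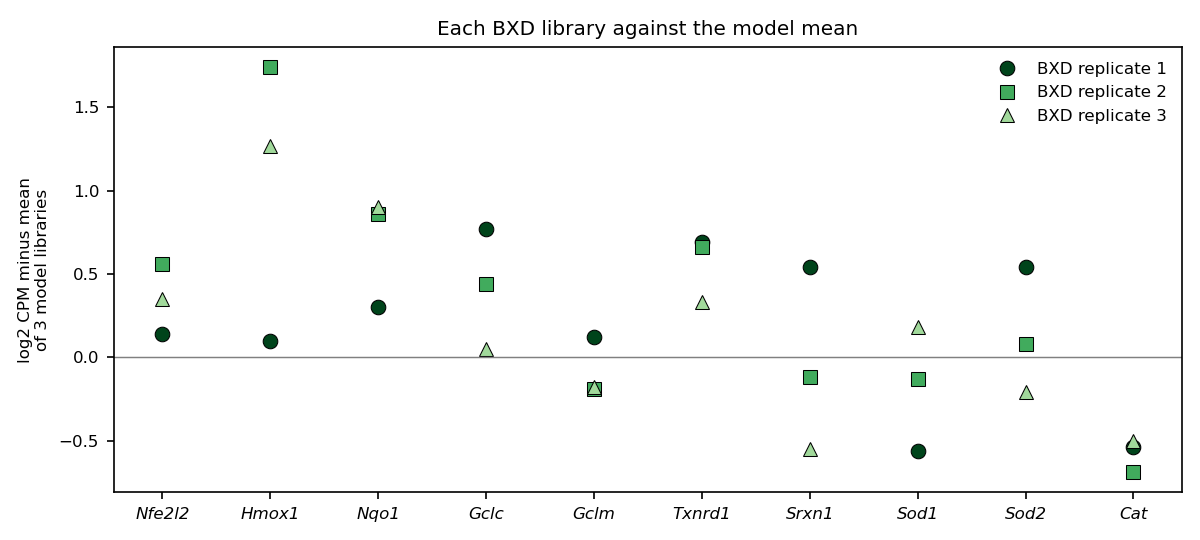
Log2 level of each of the 10 genes in each BXD library relative to the mean of the 3 model libraries. BXD replicate 1 is near 0 for Hmox1 at 0.10, where replicates 2 and 3 are at 1.74 and 1.27, and Cat is below 0 in all 3.

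The spread within groups differed between genes. For Hmox1 the coefficient of variation of CPM was 50% in BXD, 2.12% in model and 7.53% in control libraries, and for Srxn1 it was 38.8% in BXD, 38.8% in model and 18.7% in control libraries. Cat varied by 6.75% in BXD, 39.1% in model and 4.29% in control libraries. With 3 libraries a group these percentages describe the libraries and were not tested.

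**Figure D5:**
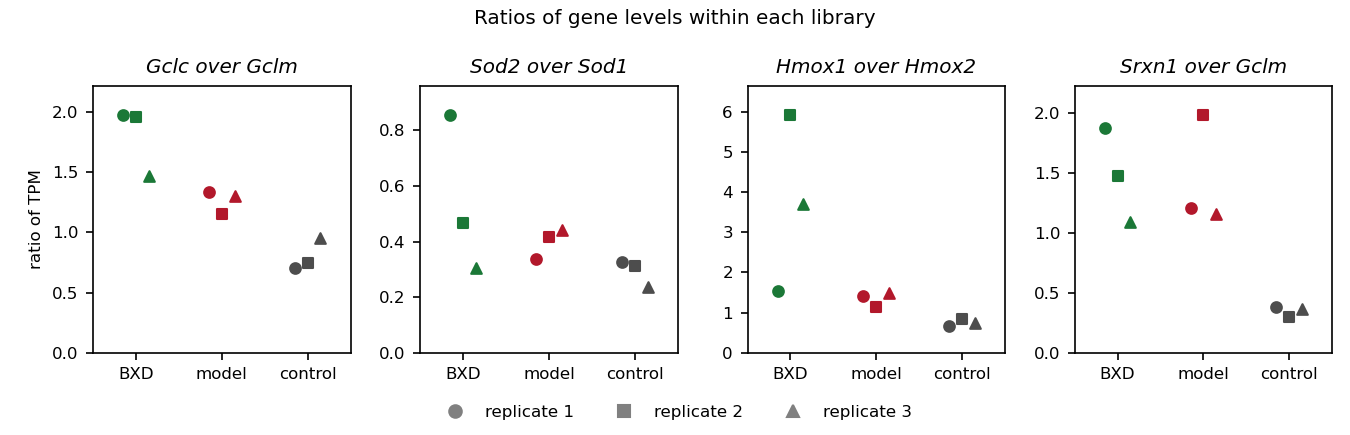
Ratio of TPM within each library for 4 pairs of genes, in BXD, model and control libraries, each point a library. Gclc over Gclm lies between 0.701 and 0.952 in control libraries, between 1.15 and 1.34 in model libraries and between 1.47 and 1.98 in BXD libraries.

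Of the pairs plotted by library as TPM ratios, Srxn1 over Gclm separated BXD and model from control libraries. It was 1.88, 1.48 and 1.09 in BXD replicates, 1.21, 1.99 and 1.16 in model replicates and 0.384, 0.297 and 0.365 in control replicates. The ratio of Sod2 to Sod1 was 0.857, 0.467 and 0.305 in BXD replicates, 0.337, 0.418 and 0.443 in model replicates and 0.328, 0.311 and 0.237 in control replicates. BXD replicate 3 lay within the control range for this pair, and model libraries lay above it. Both pairs were chosen after their values were seen and were not tested.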

How the data were processed

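Messenger RNA of rat gastric lymphatic vessel was sequenced in 9 libraries, on an instrument the labels' protocols give as an Illumina machine. HISAT2 2.2.4, Bowtie2 2.2.5 and the build Rnor_6.0 were used, per the submitters' processing notes. The tool that counted reads, and its strand setting, are not given in the sources used here. Per the file headers, the authors' table holds an estimated count, an FPKM and a TPM value for each gene and library, and 88.8% of the counts were whole within 1e-09. Another table by the authors gives log2 fold changes and q-values (adjusted p-values) from DESeq2 with a mean normalized signal per group, per the file headers. Values from it are named as the authors'. A further 45 columns of per-sample values were not used.

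Groups were taken from the sample titles, and the labels give no batch. Estimated counts were rounded, filtered with filterByExpr to 14643 genes, normalised with TMM factors of 0.873 to 1.15 (trimmed means of M-values) and fitted with edgeR 4.0.16 (R 4.3.3) by a robust quasi-likelihood model with group as the term, all 9 libraries together. The biological coefficient of variation was 23.3%. The SE is the log2 fold change divided by the square root of F, and p-values were adjusted by Benjamini-Hochberg over all genes tested. A count of 3 equals 0.195 to 0.269 CPM across the libraries, and it was not used as a filter in the tests. Chi-square statistics between replicates, divided by their degrees of freedom, were 13.5 to 49.3, so no pair agreed within sampling noise. The fit was tested on simulated counts first.

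The 10 genes, 9 pathway lists and 14 marker lists were chosen with earlier results of these data known. All 10 genes are described. From each pathway list up to 4 other genes called in model against control with the smallest p could be named, with Keap1, Bach1 and Mafg. Chromosomes of genes follow the authors' table on Rnor_6.0, and promoter windows follow RefSeq on GRCr8. Alternatives were DESeq2 1.42.0, limma-voom and limma on log2(FPKM + 1) or log2(FPKM + 0.1) (limma 3.58.1), other scalings and filters, fits of 2 groups alone, a replicate block and each library left out.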

Additional observations from a re-analysis of the deposited data

How the results depend on the processing

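Over all alternatives 7 of the 10 genes were called higher in model over control vessels. Among all genes the number called higher ranged from 1609 of 14146 tested, with FPKM and a pseudocount of 1, to 3574 of 14643 with DESeq2. In BXD over control vessels the count of the 10 genes called higher was 8 with only those groups fitted, 6 without control replicate 1 and 7 otherwise. In BXD over model vessels it was 2 with DESeq2, 0 to 1 with a library left out, and 0 under the others. Genes called between BXD and control vessels, 4444, ranged from 2776 to 4792 with a library left out, and were 2776 to 2885 without a control replicate. Between BXD and model vessels the 9 calls became 1129 with DESeq2, 3 with limma-voom, 27 and 29 with FPKM at pseudocounts of 1 and 0.1, 16 without a filter, 1 with only those groups, and 1 to 211 with a library left out, 211 without BXD replicate 1, 89 without BXD replicate 2, 45 without model replicate 1 and 1 to 3 without any other. The cause was not tested.

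Directions turned for values that the main edgeR fit did not call. Among them Nfe2l2 in model over control vessels had a q-value of 0.0341 in the authors' deposited table. In model over control vessels, library size alone and FPKM at 1 and 0.1 gave -0.05, -0.03 and -0.03 for Nfe2l2 and -0.07, -0.05 and -0.06 for Gclm, and Mafg was 0.00 with DESeq2 and its size factors and -0.08 to 0.06 with a library left out. In BXD over control vessels the same 3 settings gave -0.03, -0.04 and -0.04 for Nqo1 and -0.08, -0.08 and -0.08 for Gclm. In BXD over model vessels they gave 0.03, 0.01 and 0.01 for Srxn1, and with a library left out Srxn1 ranged from -0.39 to 0.32, Sod1 from -0.35 to 0.01 and Sod2 from -0.08 to 0.35. Scaling by the upper quartile called 2367 genes higher and 3917 lower in model over control vessels, and FPKM called 1609 and 4673.

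Deviations of same-numbered libraries from their group means correlated at -0.43 to 0.09. No pairing by replicate number was seen, but with 3 libraries a group these values cannot settle whether there was one. With the replicate block 5365, 3663 and 1 genes were called in model over control, BXD over control and BXD over model vessels, and 7, 7 and 0 of the 10 genes. Keap1 in BXD over control vessels and Maoa in model over control vessels were not called with it. Sampling noise is small for these genes, the lowest of which had 8.42 CPM, while 3 libraries a group limit precision.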
